A study of Mus musculus with 12 samples.

Results

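Gdf11, the gene for growth differentiation factor 11, was read here together with its close relative Mstn (myostatin), the activin subunits Inhba and Inhbb, the binding proteins Fst (follistatin), Fstl1 and Fstl3, and the receptors Acvr2a, Acvr2b and Acvr1b. These 10 genes, of 23923 gene symbols in the files, were chosen by the Gdf11 values: Gdf11 stood much higher in Smyd1 conditional-knockout (CKO) muscle than in control muscle, so that difference is given for Gdf11 as a description with no test. The other 9 were taken by their place in the pathway, and their differences were tested.

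RNA from the tibialis anterior, a fast-twitch muscle of the lower leg, was depleted of ribosomal RNA and sequenced from 6 control and 6 CKO mice at 6 weeks of age on the mixed strain C57BL6/J;129S1/SvImJ. The comparison asks which transcripts differ when SMYD1, a lysine methyltransferase of striated muscle, is lost from muscle fibers. Mice of both groups also carried the Rosa26 YFP/+ reporter allele. Control mice were Myf6 cre/+; Smyd1 flox/+ and CKO mice were Myf6 cre/+; Smyd1 flox/-, so both groups carried Cre, and recombined control fibers kept 1 functional Smyd1 allele where CKO fibers kept 0. Cre was made from the Myf6 locus, which is active in myofibers around birth and later, so nuclei of other cells in the muscle kept their floxed allele; these libraries were made from whole muscle, in which fewer cells of a type and less RNA per cell cannot be told apart. Recovered from the smallest steps in the values, the depth was about 10600000 to 19100000 fragments per library. Smyd1 itself had 37.4 ± 5.64 FPKM in controls and 34.1 ± 4.37 in CKOs (mean ± SD, n = 6 each), with overlapping groups and a log2 difference of -0.13 (SE 0.12, adjusted P = 0.545). FPKM scales the fragments of a gene to the length of its transcript and to the size of the library. A value over the whole gene can include RNA made from the recombined allele, so it does not check the genotype labels.

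Myostatin, GDF11 and the activins are secreted dimers of the transforming growth factor beta family. They bind the type II receptors ACVR2A and ACVR2B, which recruit a type I receptor such as ACVR1B and pass the signal to SMAD2 and SMAD3 inside the cell. Follistatin and FSTL3 bind these ligands outside the cell and keep them from their receptors. In skeletal muscle, myostatin is made by the fibers and restrains their growth, and animals without it have enlarged muscles. GDF11 has an almost identical mature domain and is best known for patterning the embryonic axis.

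Because the mature domains of both proteins are so alike, the transcripts were checked for stretches that reads of Gdf11 and Mstn could share with other genes. No stretch of 50 bases in either GENCODE M21 transcript was found in a transcript of any other gene, and the authors discarded reads that mapped to several places. Gdf11 occupies 128882295 to 128891718 on chromosome 10 and Mstn 53061640 to 53068079 on chromosome 1 (GRCm38); neither overlaps another annotated gene.

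Gdf11, the ligand that chose the genes, stood higher in the CKO. Its lowest, median and highest values were 0.546, 0.915 and 1.41 FPKM in controls and 3.16, 5.77 and 10.1 FPKM in CKOs. Every CKO mouse lay above every control mouse, and CKO 4 was the highest. The means were 0.947 ± 0.392 and 6.15 ± 2.50 FPKM (mean ± SD, n = 6 each), a 6.49-fold ratio of means and a difference of 2.57 on the log2(FPKM + 0.1) scale (SE 0.28). The values correspond to 12 to 30 fragments in each control library and 67 to 307 in each CKO library, so counting error relative to the value is wider in the controls. The 3 CKO libraries with the most slow-twitch fiber RNA (CKO 1, 3 and 6) had 4.82, 7.47 and 6.71 FPKM against 3.16, 10.1 and 4.57 FPKM in CKO 2, 4 and 5.

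Mstn moved the other way. Its lowest, median and highest values were 5.82, 7.98 and 11.3 FPKM in controls and 1.88, 3.59 and 6.70 FPKM in CKOs. The 6 CKO values were all below the control median, and 5 of them were below every control; CKO 5, at 6.70 FPKM, was the exception. The mean fell from 8.45 ± 2.11 to 3.83 ± 1.60 FPKM, a log2 difference of -1.18 (SE 0.24, 95% confidence interval -1.69 to -0.67, adjusted P = 0.0188). The libraries held 231 to 414 Mstn fragments in controls and 71 to 191 in CKOs. The call was lost without CKO 1 (log2 difference -1.17, adjusted P = 0.0527), without CKO 6 (-1.14, adjusted P = 0.0504), and with CKO 1, 3 and 6 all left out (-0.80, adjusted P = 0.349). CKO 1, 3 and 6 had the lowest Mstn of the CKOs, so leaving them all out had to shrink the difference. The call was also lost with no filter on low values (adjusted P = 0.0871). The direction was kept in each case.

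The activin subunits were near the limit of these libraries. Inhba, the subunit of activin A, had 0 to 4 fragments in each control library and 2 to 5 in each CKO library, 11 and 22 in all. Its means were 0.0984 ± 0.0872 and 0.186 ± 0.0928 FPKM, and the log2 difference was 0.57 (SE 0.32, adjusted P = 0.328). Inhba passed the filter on low values through 5 CKO and 3 control libraries, and so more through the group in which it was higher. Inhbb, the subunit of activin B, had 1 to 12 fragments per control library and 1 to 8 per CKO library and did not pass the filter; its means were 0.101 ± 0.0578 and 0.0805 ± 0.0313 FPKM. A difference in either subunit smaller than this spread was not detectable at this depth.

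Among the binding proteins, Fst (follistatin, which blocks activins, myostatin and GDF11) had its highest values in 3 of the CKO mice. Its lowest, median and highest values were 0.432, 0.687 and 2.18 FPKM in controls and 0.594, 2.16 and 3.86 FPKM in CKOs. CKO 1, 3 and 6 had 3.18, 3.74 and 3.86 FPKM and lay above every control. CKO 2, 4 and 5 had 0.839, 1.15 and 0.594 FPKM and lay within the control range, whose top was control 1 at 2.18 FPKM. The next highest control was at 0.775 FPKM, below CKO 2 and CKO 4. The log2 difference by limma was 1.10 (SE 0.46, unadjusted P = 0.0292, adjusted P = 0.197), and without control 1 it was 1.38 (adjusted P = 0.0562). It was 0.11 without CKO 1, 3 and 6, the CKO mice with the highest Fst, so this fall was set by the choice of mice. These 3 mice were also the ones in which the summed FPKM of 8 slow-twitch fiber genes exceeded all controls, at 155.4, 93.0 and 321.9 against 22.1 to 57.6 in controls and 30.3 to 40.9 in the other CKOs. All 8 genes of that list were measured and none was at 0; 7 of them were higher at unadjusted P below 0.05 (18.1% of all tested genes) and 0 at adjusted P below 0.05. The part of fiber type in the Fst result was not tested.

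Fstl1, a secreted glycoprotein of the follistatin family that is made by fibroblasts and muscle, was the most abundant of the 10 genes in both groups. Its lowest, median and highest values were 9.43, 10.4 and 40.8 FPKM in controls and 11.2, 17.9 and 24.4 FPKM in CKOs. Control 1 stood alone at 40.8 FPKM, and the 6 CKO values were above the control median. The log2 difference was 0.40 (SE 0.31, adjusted P = 0.475), and without control 1 it was 0.73 (SE 0.18, adjusted P = 0.0226). The summed FPKM of 6 fibroblast genes was 624.9 in control 1, against 163.2 to 192.3 in the other controls, and had a median of 246.9 and a maximum of 373.5 in CKOs, where all 6 values were above those 5 controls. Of the 6 genes, 3 were higher at unadjusted P below 0.05, beside 18.1% of all tested genes. Control 1 was also the highest of all libraries for tendon (55.0), macrophage (15.2) and adipocyte genes (305.7), and for fast-twitch fiber genes (35650). The part of RNA from these cells in the Fstl1 values was not tested.

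Fstl3, which binds activins and myostatin as follistatin does, had 0.113 ± 0.0832 FPKM in controls and 0.107 ± 0.0824 in CKOs and did not pass the filter. In the annotation, 58.1% of the 50-base stretches of its transcript also lie in a transcript of Prss57 on the opposite strand, so its values are uncertain. The same share was 7.04% for Acvr2a (with Orc4), 2.41% for Fst (with the antisense RNA Gm47040) and 0.615% for Inhba, and 0 for the other members.

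The receptors differed by less than the spread between mice. Acvr2a, the type II receptor with the higher level in this muscle, had a lowest, median and highest value of 3.80, 5.87 and 8.59 FPKM in controls and 4.52, 5.44 and 7.27 FPKM in CKOs. Its log2 difference was 0.00089 (95% confidence interval -0.36 to 0.36, adjusted P = 0.998). Acvr2b, the second type II receptor for myostatin and GDF11, had 0.591 ± 0.358 FPKM in controls and 0.527 ± 0.159 in CKOs, a log2 difference of -0.06 (95% confidence interval -0.64 to 0.51, adjusted P = 0.916). Acvr1b, the type I receptor that activins share with these ligands, had 6.69 ± 1.98 FPKM in controls and 6.70 ± 2.65 in CKOs, a log2 difference of -0.04 (95% confidence interval -0.57 to 0.48, adjusted P = 0.938). The groups overlapped for all 3 receptors, and the signs of these small differences turned under other settings given further on.

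**Figure D1:**
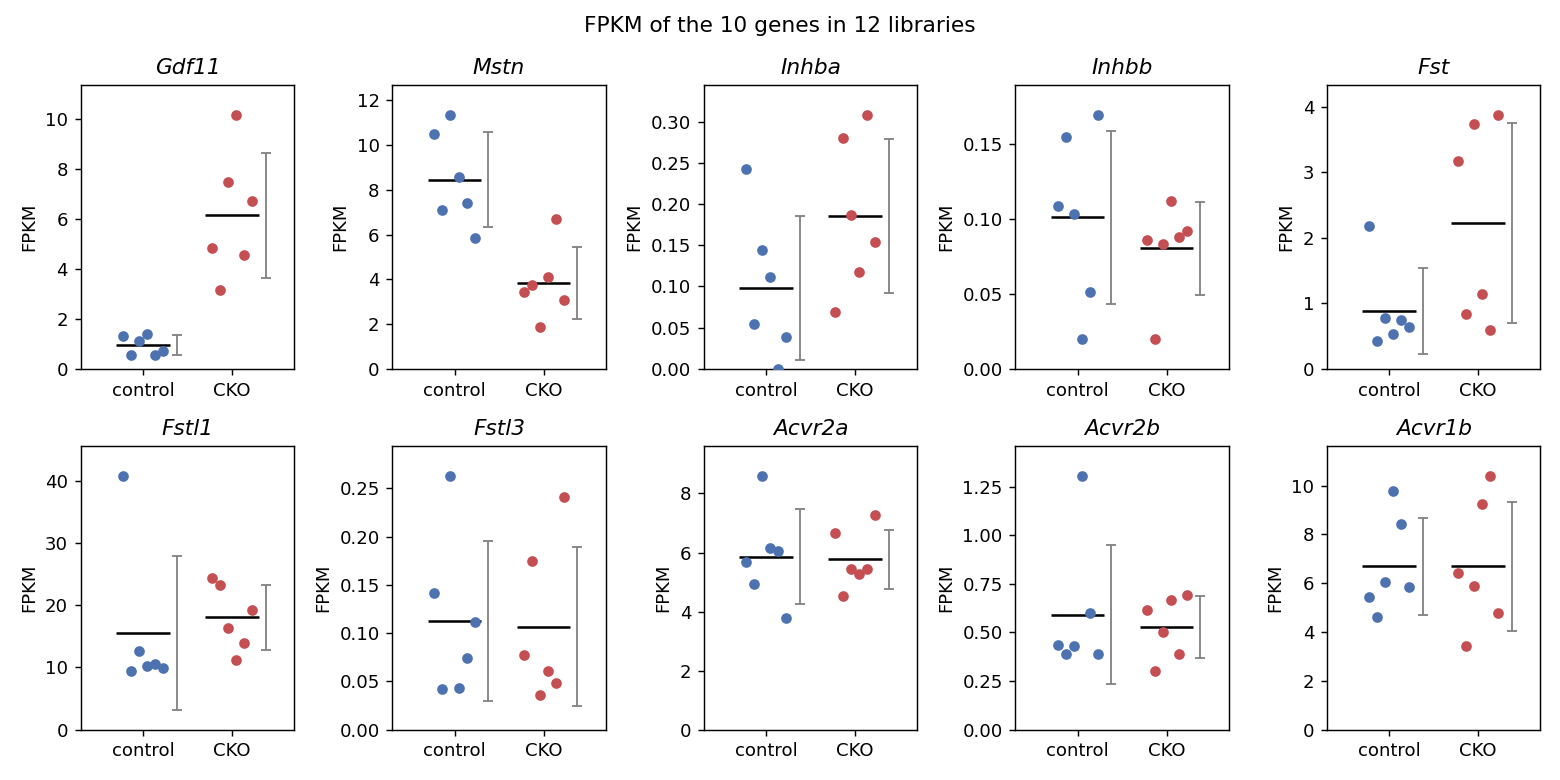
FPKM of each of the 10 genes (y axis, linear, each panel with its own scale from 0) in the 6 control (blue) and 6 CKO (red) libraries. Points are mice, black lines are group means and grey bars are 1 SD around the mean. Gdf11 is the gene whose groups lie apart, Mstn overlaps through 1 CKO mouse, and Fst is high in 3 CKO mice.

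Of the 10 genes, 8 passed the filter (at least 0.1 FPKM in at least 6 of 12 libraries), and 7 of these were open to a test. At adjusted P below 0.05, 1 of the 9 genes other than Gdf11, 7 of which were tested, was lower (Mstn), where 0.268% of 12695 tested genes were lower, and 0 were higher, where 2.02% of tested genes were (2.29% in either direction). In the same limma fit, at an unadjusted P below 0.05, 1 was higher (Fst; 18.1% of tested genes) and 1 was lower (Mstn; 1.76%), beside 19.9% of tested genes in either direction. Groups that did not overlap, with all CKO values above all control values, were found for 2.23% of tested genes, and among the 10 genes for Gdf11, which was chosen for its rise. The reverse was found for 0.189% of tested genes and for none of the 10.

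The scaling of the libraries bears on all of these values. With FPKM as deposited, the median log2 difference of all tested genes was 0.18 and 77.9% of them were positive. After median-ratio scaling the median was 0.01 and 51.2% were positive, and the genes at unadjusted P below 0.05 went from 2300 higher and 224 lower to 841 higher and 944 lower. At adjusted P below 0.05 they went from 257 higher and 34 lower to 97 higher and 90 lower. On that scale the difference was 2.39 for Gdf11, -1.36 for Mstn (adjusted P = 0.0079), 0.93 for Fst (adjusted P = 0.348), 0.50 for Inhba and 0.21 for Fstl1 (adjusted P = 0.799). The receptors were at -0.18 for Acvr2a, -0.22 for Acvr2b and -0.23 for Acvr1b, all with adjusted P of 0.647 or more. Relative to the typical gene, Gdf11 was thus still the highest and Mstn the lowest of the 8.

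**Figure D2:**
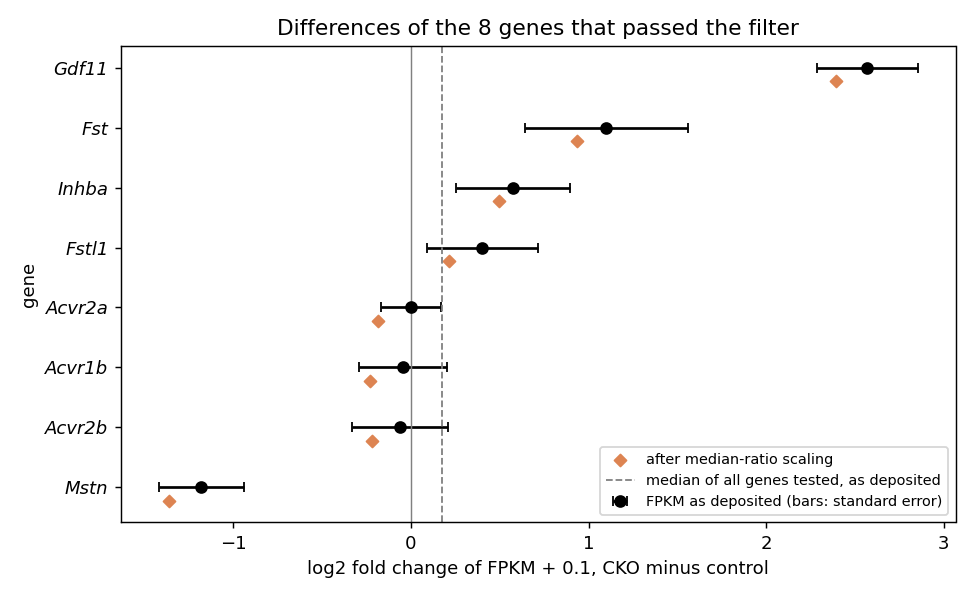
Difference between CKO and control on the log2(FPKM + 0.1) scale (x axis) for the 8 genes that passed the filter, with standard errors (black) and after median-ratio scaling (orange). The dashed line is the median of all tested genes at 0.18. Gdf11 is at 2.57 by the choice of the genes, Mstn is at -1.18, and the 3 receptors are near 0 as deposited.

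Since FPKM is a value per length, the levels of the genes can be set against each other within a group. In controls the order of the mean FPKM was Fstl1, Mstn, Acvr1b, Acvr2a, Gdf11, Fst, Acvr2b, Fstl3, Inhbb and Inhba. The ranges of neighbours in that order were apart only between Acvr2a and Gdf11 and between Acvr2b and Fstl3. In CKOs the order was Fstl1, Acvr1b, Gdf11, Acvr2a, Mstn, Fst, Acvr2b, Inhba, Fstl3 and Inhbb, and only Fstl1 was apart from its neighbour. Gdf11 had thus gone from a level below both Acvr1b and Acvr2a in controls to a level that overlapped theirs, 6.15 FPKM beside 6.70 and 5.77 FPKM.

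Ratios within a mouse depend little on how the libraries are scaled where both genes lie well above the 0.1 FPKM added to each, as Gdf11, Fst and Mstn mostly do, and not for Fstl3, Inhba and Inhbb, which are near that value. The log2 ratio of Gdf11 to Mstn ran from -3.50 to -2.52 in controls and from -0.54 to 1.93 in CKOs, with means of -3.08 ± 0.39 and 0.67 ± 0.94. Mstn exceeded Gdf11 in 6 of 6 controls and in CKO 2 and 5, while Gdf11 exceeded Mstn in CKO 1, 3, 4 and 6. As Gdf11 chose the genes, this ratio has no test.

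The ratio of Fst to Mstn was open to a test. Its log2 value ran from -3.77 to -2.21 in controls and from -3.29 to 0.95 in CKOs, with means of -3.27 ± 0.61 and -0.99 ± 1.62. Mstn exceeded Fst in all controls, and Fst exceeded Mstn in CKO 3 and CKO 6. The difference was 2.28 (exact two-sided permutation test, P = 0.0108, adjusted P = 0.0303 over 4 ratios), with 5 CKO mice above the highest control and CKO 5 within the control range. Without CKO 1, 3 and 6, which had the highest ratios, the difference was 0.91 (exact permutation test, P = 0.107). Leaving out these mice had to lower it.

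The other 3 ratios had smaller differences. The log2 ratio of Fstl3 to Mstn was -5.37 ± 0.41 in controls and rose by 1.13 to -4.24 ± 0.80 in CKOs (exact permutation test, P = 0.0152, adjusted P = 0.0303). Without CKO 1, 3 and 6 that difference was 0.70 (exact permutation test, P = 0.131). Fstl3 did not pass the filter and had nearly the same mean FPKM in both groups, so this ratio restates the Mstn difference and is no separate result. The Fst ratio too has Mstn below the line and is not independent of its fall. The ratio of Acvr2b to Acvr2a differed by -0.06 (exact permutation test, P = 0.827), and that of Inhbb to Inhba by -0.70 (exact permutation test, P = 0.130).

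**Figure D3:**
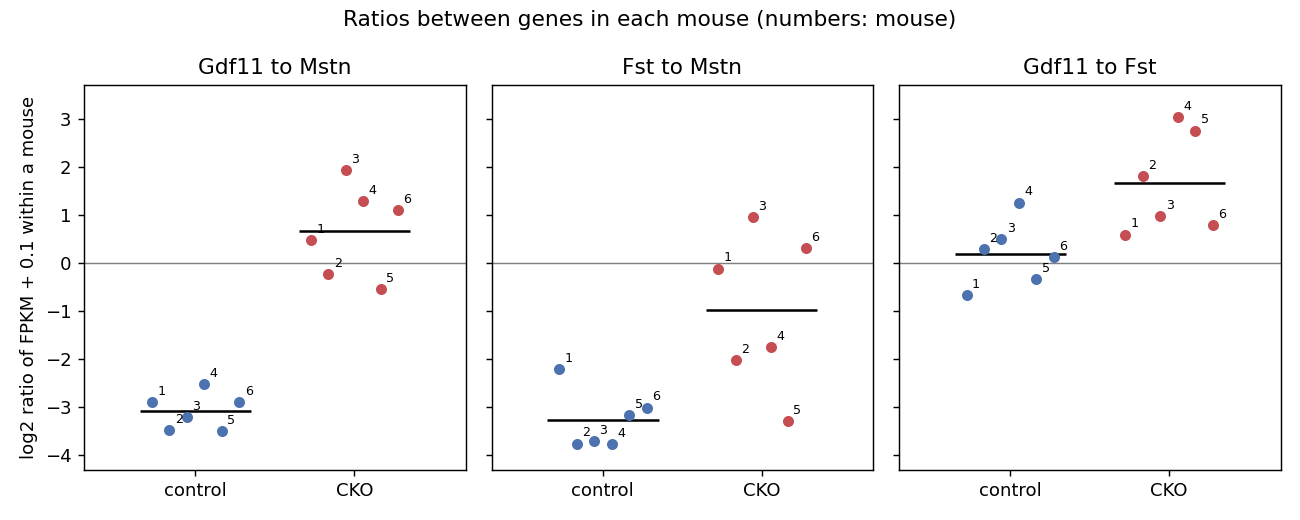
log2 ratios of FPKM + 0.1 within each mouse (y axis) for Gdf11 to Mstn, Fst to Mstn and Gdf11 to Fst, in control (blue) and CKO (red) mice. Points are numbered by mouse and lines are group means. Gdf11 to Mstn is below -2.5 in all controls and above -0.6 in all CKOs, and Fst to Mstn is highest in CKO 1, 3 and 6.

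Mstn, Fst and Fstl1 were also set beside the marker sums of each library. For Mstn, CKO 1, 3 and 6, which had the high slow-twitch sums, had 3.45, 1.88 and 3.10 FPKM, and CKO 2, 4 and 5, whose sums lay within the control range, had 3.73, 4.13 and 6.70 FPKM. CKO 2 and CKO 4 were thus below the lowest control, at 5.82 FPKM, with slow-twitch sums of 30.3 and 40.9. The summed FPKM of 9 fast-twitch fiber genes, the defining signal of this muscle, was 21360 to 35650 in controls (median 27900) and 24860 to 29670 in CKOs (median 25990). Of the 9, Myh4 and Myh1, fast myosin heavy chains, were higher at unadjusted P below 0.05, beside 18.1% of all tested genes. Myh1 was also higher at adjusted P below 0.05 by limma (log2 difference 1.05, SE 0.18, adjusted P = 0.00734), beside 2.02% of all tested genes. Satellite cell genes, whose protein products mark the resident stem cells, summed to 5.05 to 9.45 FPKM in controls and 6.27 to 12.9 in CKOs, and 3 of 4 were higher at unadjusted P below 0.05, beside 18.1% of all tested genes. Their part in the Gdf11 and Mstn values was not tested.

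**Figure D4:**
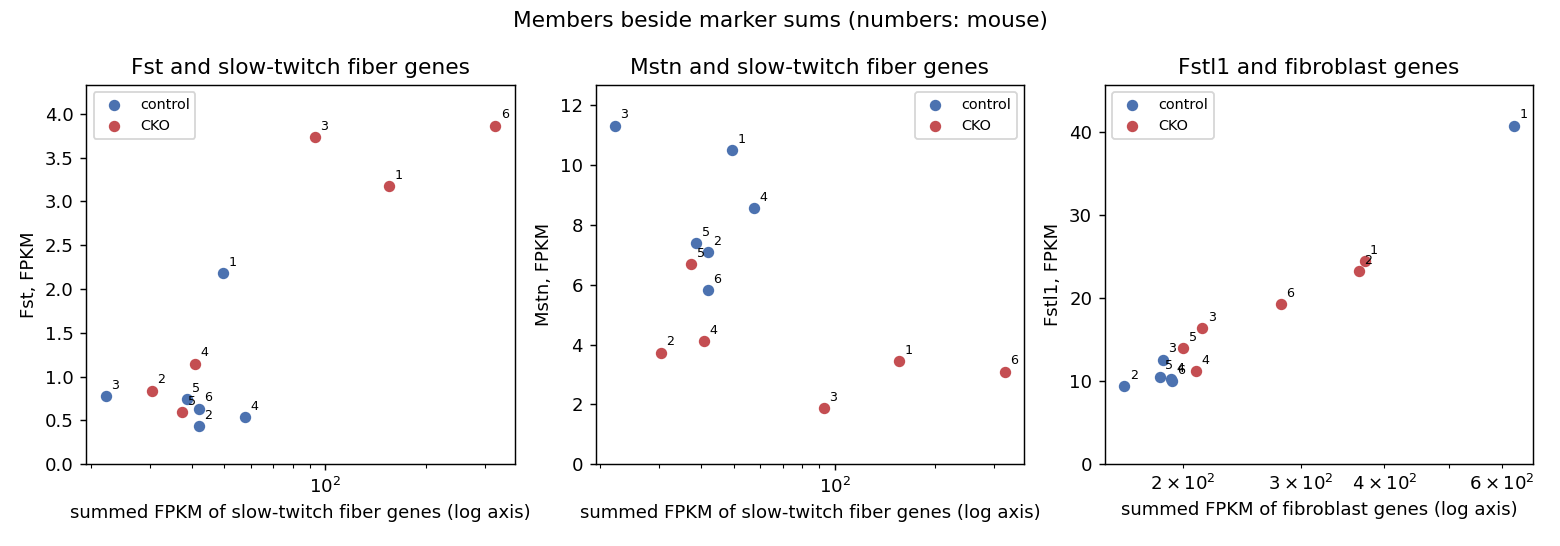
FPKM of Fst and Mstn against the summed FPKM of 8 slow-twitch fiber genes, and of Fstl1 against the summed FPKM of 6 fibroblast genes (x axes are log axes). Points are mice numbered within control (blue) and CKO (red). Fst is high in the 3 CKO mice with the highest slow-twitch sums, Mstn is low in those and in CKO 2 and 4, and control 1 is the highest for both Fstl1 and the fibroblast sum.

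The rest of the activin branch was described by a list of 39 other ligands, proteases, binding proteins, receptors, SMAD proteins and target genes, of which 26 passed the filter. At adjusted P below 0.05, 0 were higher and 0 lower by limma. At unadjusted P below 0.05, 8 were higher (18.1% of all tested genes) and 1 was lower (1.76%). The median log2 difference was 0.27, beside 0.18 for all tested genes. After median-ratio scaling 3 were higher and 3 lower, beside 841 higher and 944 lower of all 12695 tested genes. The median was then 0.11, beside 0.01.

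The 3 genes of that list with the smallest P were Tgfbr3, Pcsk6 and Smad2. Tgfbr3 (betaglycan, a co-receptor that binds inhibin and TGF-beta) had a lowest, median and highest value of 2.36, 2.83 and 5.55 FPKM in controls and 3.87, 4.71 and 5.77 in CKOs, a log2 difference of 0.59 (SE 0.18, adjusted P = 0.0875). Only control 1 overlapped the CKO range. Pcsk6, a proprotein convertase of the family that cleaves TGF-beta ligands from their precursors, had 1.28, 1.54 and 3.03 FPKM in controls and 2.04, 2.80 and 4.23 in CKOs, a log2 difference of 0.69 (SE 0.22, adjusted P = 0.11). Control 1 and control 3 overlapped the CKOs. Smad2, the receptor-activated mediator of this branch, had 0.817, 0.922 and 1.05 FPKM in controls and 1.08, 1.25 and 1.39 in CKOs, a log2 difference of 0.39 (SE 0.13, adjusted P = 0.116) with groups that did not overlap.

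Further genes of the list are named here after their values were seen. Furin, a protease that also cleaves these precursors, was the second gene with groups that did not overlap, at 2.39 ± 0.196 and 2.96 ± 0.316 FPKM (log2 difference 0.30, adjusted P = 0.152). Of all tested genes, 2.23% had every CKO value above every control value. After median-ratio scaling Smad2 was at 0.21 (limma, unadjusted P = 0.106) and Furin at 0.12 (limma, unadjusted P = 0.323). Bmp1, of the family of proteases that release myostatin and GDF11 from their propeptides, had 1.66 ± 0.643 FPKM in controls and 2.42 ± 0.410 in CKOs (log2 difference 0.58, adjusted P = 0.145). The gene lower at unadjusted P below 0.05 was Tgif1, a repressor of SMAD-driven transcription, at 1.36 ± 0.472 and 0.888 ± 0.198 FPKM (log2 difference -0.52, adjusted P = 0.19). After median-ratio scaling the 3 higher were Tgfbr3, Pcsk6 and Bmp1, and the 3 lower were Tgif1, Smad3, the second mediator of this branch, and Wfikkn2, a binding protein for myostatin and GDF11. Cdkn1a, which halts the cell cycle and is induced by TGF-beta in many cells, had 4.08, 3.50 and 5.87 FPKM in CKO 1, 3 and 6 and 0.806 to 1.41 FPKM in CKO 2, 4 and 5, beside 0.436 to 1.92 in controls.

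The BMP branch, the other arm of the family, which signals through SMAD1, SMAD5 and SMAD9, was described by 22 genes, of which 19 passed the filter. By limma, 0 were called in either direction at adjusted P below 0.05. At unadjusted P below 0.05, 3 were higher (Smad1, Id3 and Id2; 18.1% of all tested genes) and 0 lower (1.76%), with a median log2 difference of 0.14 beside 0.18 for all tested genes. After median-ratio scaling 0 were higher and 1 was lower (Id1), beside 841 higher and 944 lower of all 12695 tested genes. The median was then -0.04. Smad1, a mediator of this branch, had 2.67 ± 0.308 FPKM in controls and 3.31 ± 0.509 in CKOs (log2 difference 0.29, adjusted P = 0.2). Id3 and Id2, transcriptional inhibitors induced by BMPs, had log2 differences of 0.50 (adjusted P = 0.236) and 0.51 (adjusted P = 0.249), and the groups overlapped for all 3 genes.

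The genes on either side of Gdf11 and Mstn in the annotation were read to see whether the differences reached beyond them. Of 9 tested neighbours of Gdf11, out to 81.5 kb, log2 differences ran from -0.06 to 1.03, with a median of 0.35 beside 0.18 for all tested genes. At unadjusted P below 0.05, 3 of the 9 were higher (Itga7, Dnajc14 and Tmem198b; 18.1% of all tested genes), and 1 of them, Itga7, was past the adjusted threshold (2.02%). Sarnp, 4.67 kb away, was at 0.35 (SE 0.21, adjusted P = 0.366), and Cd63, 9.27 kb away, at 0.49 (SE 0.24, adjusted P = 0.263). Itga7, the integrin subunit of the muscle fiber that binds laminin, lies 42.1 kb from Gdf11 and was at 4.58 ± 1.39 FPKM in controls and 9.38 ± 2.43 in CKOs (log2 difference 1.03, SE 0.20, adjusted P = 0.0149). Of 10 tested neighbours of Mstn, out to 687.4 kb, log2 differences ran from -0.07 to 0.74, and 0 were past the threshold at adjusted P below 0.05 by limma, 1 being higher at unadjusted P below 0.05 (Inpp1). The neighbours named were chosen after their values were seen.

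**Figure D5:**
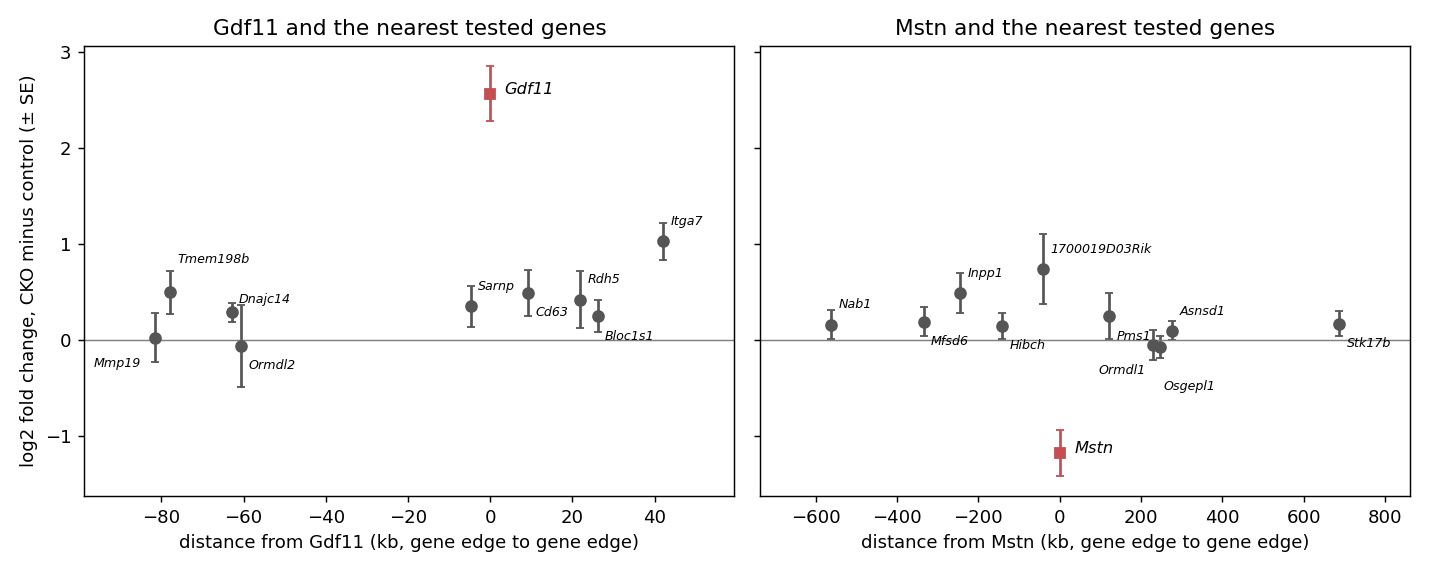
Difference between CKO and control on the log2(FPKM + 0.1) scale (y axis, with standard errors) against distance in kb from Gdf11 (left) and Mstn (right), for up to 5 annotated tested genes on each side. The nearest neighbours of Gdf11 are between 0.35 and 0.49 where Gdf11 is at 2.57, and Itga7 is at 1.03. No neighbour of Mstn is as low as Mstn.

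The genes most like Gdf11 were ranked by Pearson r as a description. Over the 12 log2 values, which share the split into groups, the highest were Katnal2 (r = 0.98), Cyb5r1 (0.96), Lamb2 (0.95), Slc12a2 (0.94) and Tmtc1 (0.94). All 5 were higher in the CKO. A ranking by likeness to Gdf11 favours such genes, so this is no separate result. Katnal2, a katanin-like microtubule gene, had a mean of 0.0560 FPKM in controls, below the 0.1 FPKM of the filter, and 0.556 FPKM in CKOs. Lamb2, a laminin chain of the basement membrane, had 9.52 and 15.1 FPKM. Over the deviations from the group means in the same 12 libraries, the highest were Rnf216 (0.93), Snora36b (0.91), Rgcc (0.90), Ddx21 (0.88) and Amt (0.87), with adjusted P of 0.157 or more for their own differences. No gene was in both lists of 5. Within groups, r to Gdf11 was 0.58 for Acvr2b, 0.42 for Fst and 0.07 for Mstn, which were ranks 802, 2405 and 7723 among the tested genes. It was 0.39 for Acvr1b, 0.39 for Acvr2a, 0.26 for Inhba and 0.09 for Fstl1.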

How the data were processed

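Ribosomal RNA-depleted libraries of tibialis anterior RNA from 6 control and 6 CKO mice were analysed. The authors trimmed adapters, aligned reads with TopHat2 2.0.10, discarded reads mapping to several places and computed FPKM per gene with Cufflinks 2.1.1 on mm9 (versions from the submitters' processing notes); these deposited FPKM are not counts, so no count test was used. Whether counting used strand is not given in the sources used here. Of 23950 rows, 27 with a date in place of a symbol were left out. The test was limma 3.58.1 (R 4.3.3) with a trend on log2(FPKM + 0.1), which understates the change of low genes, over the 12695 genes with at least 0.1 FPKM in 6 of 12 libraries, with Benjamini-Hochberg adjustment over all of them. The limma fit was tested on simulated log-scale data. Ratios used an exact permutation test over every assignment of 6 mice to a group (scipy 1.17.1), whose smallest P is 0.00216. Depth was estimated from the steps between low FPKM values (178 of 311 genes fell in 1 peak), and fragments per gene came out whole, to a tolerance of 0.02, for 7 of the 10 genes and not for Fst, Fstl3 and Acvr2a. Libraries of a group had log2 correlations of 0.944 to 0.972. By the methods of the paper, the RNA came from 6 control and 6 CKO mice, and each library was read as 1 mouse. The labels number the libraries of each group and give no batch or sex. The paper states that its experiments after the comparison of the sexes used male tissue only. The files hold no positions; GRCm38 coordinates, neighbours and transcripts are from GENCODE M21, matched by symbol. The 10 genes, the pathway and marker lists and the tests were chosen with earlier results of these data known. Named genes were the 10, Smyd1, the 3 of smallest P (and any past the adjusted threshold) in each pathway list, and the 5 most like Gdf11 by each measure; other genes of the pathway and marker lists and the neighbours were named after their values were seen. Marker lists were read by summed FPKM. Counts of their genes at unadjusted P below 0.05 stand beside 18.1% higher and 1.76% lower of all tested genes. The ranges of the sums not given with a gene were, in controls and in CKOs, 16.5 to 55.0 and 14.3 to 32.8 for tendon (1 of 5 genes lower at unadjusted P below 0.05), 25.6 to 36.7 and 24.8 to 42.1 for endothelium (0 of 5), 4.66 to 15.2 and 4.72 to 11.1 for macrophages (0 of 5), 11.2 to 15.5 and 13.0 to 20.5 for Schwann cells (3 of 5 higher; Sox10 at 0 in some library), and 94.1 to 305.7 and 93.5 to 209.6 for adipocytes (1 of 3 tested higher; Plin1 and Lep at 0 in some library). The alternatives were median-ratio scaling, a pseudocount of 1 FPKM, no filter or one at 1 FPKM, array weights, quantile normalization, no trend, a replicate block, each library left out and CKO 1, 3 and 6 left out.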

Additional observations from a re-analysis of the deposited data

Results flagged for a closer look

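Of 20 groups of 6 libraries (10 genes, 2 groups each), 4 held 1 library far from the rest, where chance flags about 1 in 20 groups. Fst was 2.18 FPKM in control 1, the highest control by a wide gap, and Fstl1 was 40.8 FPKM in the same library, which also had the highest fibroblast sum. Acvr2b was 1.30 FPKM in control 4, above the other controls. Inhbb was 0.0201 FPKM in CKO 2, below the other CKOs, which is 1 fragment.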

How the results depend on the processing

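Mstn stayed lower under 21 of 21 alternatives, with log2 differences of -1.36 to -0.80. It lost its call with no filter (adjusted P = 0.0871) and without CKO 1, 3 and 6, which made the number of the 9 genes called lower 0, as it did without CKO 1 or CKO 6; leaving out single libraries gave 0 to 1 lower and 0 to 1 higher. Array weights called 1 higher (Fst, adjusted P = 0.0227), and leaving out control 1 called Fstl1. At unadjusted P the number higher was 0 with no filter, with quantile normalization and without CKO 1, 3 and 6. It was 3 with array weights and ran from 0 to 3 with single libraries left out. It was also 0 with a filter at 1 FPKM, but Fst, Inhba and Acvr2b did not pass that filter and were not tested there. Gdf11 was at 1.83 with a pseudocount of 1 and at 2.41 to 2.74 with single libraries left out.

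The receptors changed sign. Acvr2a was at -0.0022 with a pseudocount of 1, -0.18 with median-ratio scaling, -0.15 with quantile normalization and -0.17 without CKO 1, 3 and 6, and ran from -0.11 to 0.12 with single libraries left out. Acvr1b was at 0.10 without CKO 1, 3 and 6 and ran from -0.19 to 0.12, Acvr2b from -0.14 to 0.17, and the ratio of Acvr2b to Acvr2a from -0.23 to 0.14 with single libraries left out.

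In the activin list, the number higher at adjusted P was 1 with the replicate block, 4 with array weights and 0 to 5 with single libraries left out. At unadjusted P it was 3 higher and 3 lower with median-ratio scaling, 3 and 4 with quantile normalization, 0 and 0 without CKO 1, 3 and 6, and 5 to 8 and 0 to 3 with single libraries left out; 2 were lower with a pseudocount of 1 and with no trend, and 3 with array weights. In the BMP list it was 0 higher and 1 lower with either scaling, 1 and 2 without CKO 1, 3 and 6, and 0 to 5 and 0 to 1 with single libraries left out, which gave 0 to 1 higher at adjusted P. The causes were not tested.

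The replicate numbers are shared between groups, but nothing ties same-numbered mice together: their deviations correlated at -0.0861 to 0.164, and 2 of 6 correlated best with their own number. With the replicate block Mstn kept its call (adjusted P = 0.0386). The ratio of Fst to Mstn, 2.28, and that of Fstl3 to Mstn, 1.13, had P = 0.0625 by exact sign flips of the pairs. Without CKO 1, 3 and 6 these were 0.91 and 0.70, and with single libraries left out 1.89 to 2.74 and 0.93 to 1.39.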
